A study of Drosophila melanogaster with 6 samples.

Results

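The genes described here encode the proteins of the mitochondrial ribosome in Drosophila melanogaster. They were chosen by name, as every gene whose symbol in the study's table of genes begins with mRpL (large subunit) or mRpS (small subunit), and were joined to the read counts by gene identifier. The rule took 73 of the 17611 genes counted, 47 of the large subunit and 26 of the small subunit, and used no measured value. Mitochondria keep a small genome of their own, which encodes a handful of core respiratory chain proteins and the 2 ribosomal RNAs (rRNAs) around which the mitoribosome is built. All of the proteins of this ribosome are encoded in the nucleus, made in the cytosol and imported. Low numbers in each series (up to mRpL36 and mRpS21) are the names of bacterial ribosomal proteins, as fits the bacterial ancestry of the organelle, and higher numbers were given to proteins first named in mitochondria. The indirect flight muscles (IFMs) of flies are among the tissues richest in mitochondria, which supply the ATP that flight consumes.

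The series asked what happens when the Hox transcription factor Antennapedia (Antp), which is normally cleared from flight muscle fibers, is kept on in them. IFMs were dissected by hand from pupae at 72 hours after puparium formation (APF) and 25°C, and polyadenylated RNA was sequenced on strand-specific libraries. One group carried Act88F-Gal4 with UAS-Antp (3 libraries), and the other carried the same Act88F-Gal4 driver with UAS-GFP (3 libraries), so that both groups expressed Gal4 from the promoter of a flight muscle actin gene and differed in the protein it drove. Each library pooled the muscles of 6 to 8 pupae. The sources differ on what the 3 libraries of a group are. The series design calls them independent triplicates, whereas the paper describes its RNA-seq as technical replicates of a single biological replicate. The errors and p-values below therefore measure the spread between libraries, which may be technical. The driver is active late and in fibers, and the data therefore say nothing of Antp in the myoblasts from which the fibers form.

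Total counts ran from 63217976 to 77781458 in UAS-Antp libraries and from 47460809 to 64485309 in UAS-GFP libraries. Antp itself had 6704, 8765 and 5124 counts per 1000000 (CPM) in UAS-Antp muscles, against 1.75, 1.03 and 1.81 CPM in UAS-GFP muscles. CPM are scaled here with TMM, a method that sets the libraries level on the bulk of their genes, and its factors were far apart, 1.53 to 1.60 with UAS-Antp and 0.609 to 0.674 with UAS-GFP. Of 9546 genes with enough counts to test, 35.6% passed, 19.3% lower and 16.3% higher with UAS-Antp, at an adjusted p under 0.001 in edgeR's quasi-likelihood test, the threshold used throughout, and their median log2 fold change was 0.17. All 10 flight muscle markers fell with TMM scaling, with a sum of 56986 to 68069 CPM in UAS-Antp muscles and 355061 to 397265 CPM in UAS-GFP muscles. With library totals in place of TMM 8 of these 10 fell. The median log2 fold change of the 10 was −2.47 with TMM and −1.15 with library totals. Among markers of other cells, with TMM scaling, 4 of 5 tracheal genes fell (sum 156 to 225 CPM with UAS-Antp and 664 to 714 CPM with UAS-GFP), 2 of 4 tested myoblast genes rose, and no tested marker of neurons (5), hemocytes (4), fat body (5) or tendon and epidermis (5) was called. With library totals in place of TMM, 1 tracheal gene fell and 1 rose, and 3 myoblast, 3 neuronal, 2 hemocyte, 3 fat body and 2 tendon and epidermis genes rose. Most genes shifted upward with that scaling: of all 9546 genes tested 4971 rose and 685 fell (7.18%), with a median log2 fold change of 1.48. None of the markers of these 6 cell types was at or under 3 counts in all 6 libraries. The part of flight muscle loss or of tracheal RNA in the values below was not tested, and in dissected tissue fewer cells of a type and less RNA per cell cannot be told apart.

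All 73 mitochondrial ribosomal protein genes passed the filter on low counts, and all 73 fell with UAS-Antp. This compares with 19.3% of all genes tested that were lower. No member rose, and all 73 had a negative log2 fold change in edgeR, in DESeq2 and in limma's voom. Together the 73 genes made up 2626, 2481 and 2856 CPM in UAS-Antp muscles (mean 2654 ± 189, SD, n = 3), against 12835, 13736 and 14435 CPM in UAS-GFP muscles (mean 13669 ± 802, SD, n = 3). Their summed expression was thus 5.15-fold lower with UAS-Antp under TMM scaling. As a share of all counts, they made up 0.398% to 0.457% with UAS-Antp and 0.795% to 0.925% with UAS-GFP. In every one of the 73 genes the highest UAS-Antp library lay below the lowest UAS-GFP library, whereas this held for 30.6% of all genes tested (68.3% were separate in either direction). The lowest UAS-GFP value exceeded the highest UAS-Antp value by 1.65-fold in the closest case and 10.5-fold in the widest, with a median of 4.44-fold. With TMM scaling the fall was therefore shared by all members and did not rest on a few abundant ones. With library totals 55 of the 73 were called lower, against 7.18% of all genes tested, and no member was called higher.

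The size of the fall was not even. Fitted log2 fold changes ran from −3.68 for mRpL42 to −1.35 for mRpS18A, with a median of −2.47, which is −2.64 relative to the median of all genes tested. The 10 flight muscle markers had the same median of −2.47. The standard deviation among members was 0.53 on this scale, and the standard error of a single member ran from 0.095 to 0.22. The spread between members was thus wider than the error of most of them. The 95% interval of the log2 fold change lay wholly above the members' median for 23 genes and wholly below it for 19. At least a 4-fold fall was fitted for 57 of 73 members, against 9.77% of all genes tested, and at least an 8-fold fall for 10 members. Only 6.32% of all genes tested had a log2 fold change at or below the members' median, and 15.8% at or below that of mRpS18A, the least lowered member. Adjusted p-values in edgeR's quasi-likelihood test ran from 7.39e-09 to 0.000196.

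**Figure D1:**
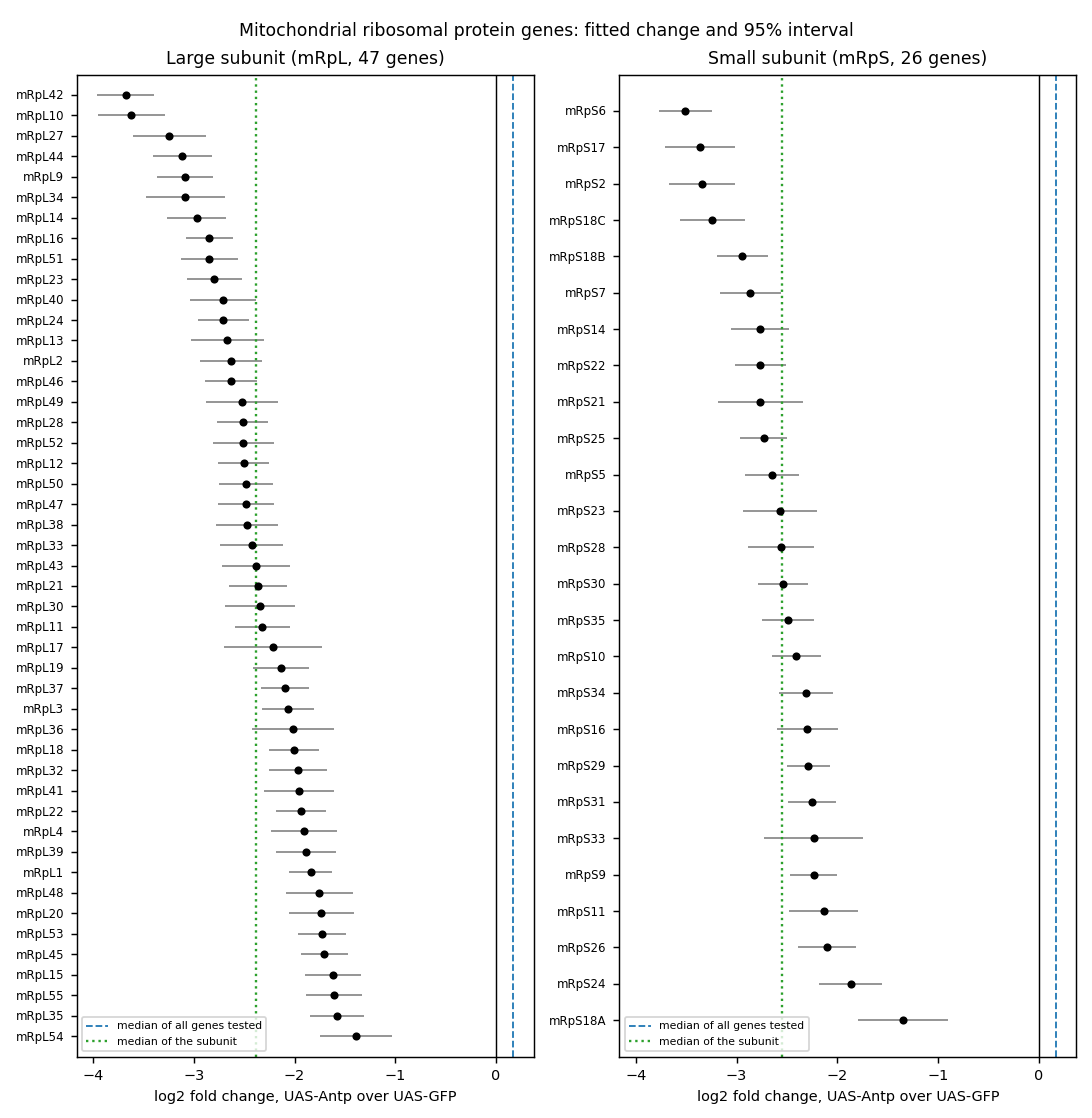
Fitted log2 fold change, UAS-Antp relative to UAS-GFP, for each large-subunit gene (left panel) and small-subunit gene (right panel), with points for the estimate and bars for its 95% interval; the dotted line is the median of the subunit and the dashed line the median of all genes tested (0.17). Every interval lies below 0, and the estimates run from −3.68 (mRpL42) to −1.39 (mRpL54) in the large subunit and from −3.51 (mRpS6) to −1.35 (mRpS18A) in the small subunit.

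The deepest fall was that of mRpL42, a large-subunit protein without a bacterial counterpart whose gene lies on chromosome arm 2R. It had 12.8, 12.2 and 13.8 CPM in UAS-Antp muscles, against 145, 174 and 177 CPM in UAS-GFP muscles, a log2 fold change of −3.68 ± 0.13 (SE). Next in the large subunit came mRpL10, at chr2L:203779-204782 on the plus strand (dm6), which anchors the flexible stalk that recruits translation factors in bacteria. Its values were 13.7, 10.4 and 12.1 CPM in UAS-Antp muscles and 129, 165 and 152 CPM in UAS-GFP muscles, a log2 fold change of −3.62 ± 0.15. For both genes each UAS-Antp library lay far below each UAS-GFP library, and the intervals of the 2 fold changes overlap. The other members among the 6 deepest falls of this subunit were mRpL27 (log2 fold change −3.24), mRpL44 (−3.12), mRpL9 (−3.09) and mRpL34 (−3.09). mRpL44, which has an RNase III-like fold in mammals and whose loss of function causes heart muscle disease in humans, had 40.8, 37.5 and 46.6 CPM in UAS-Antp muscles, against 321, 391 and 372 CPM in UAS-GFP muscles.

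At the other end of the large subunit stood mRpL54, with 42, 34.8 and 44 CPM in UAS-Antp muscles, against 82.1, 112 and 122 CPM in UAS-GFP muscles. Its log2 fold change was −1.39 ± 0.16, and the groups still did not overlap. Also among the 6 smallest falls were mRpL35 (−1.58), mRpL55 (−1.61), mRpL15 (−1.62), mRpL45 (−1.70) and mRpL53 (−1.73). Of these, mRpL35 and mRpL15 have bacterial counterparts, and mRpL45 is the protein that tethers the mammalian mitoribosome to the inner membrane beside the exit of the nascent chain. mRpL55 had 72.5, 60.2 and 62.0 CPM in UAS-Antp muscles, against 179, 192 and 221 CPM in UAS-GFP muscles. The intervals of these 6 genes and those of the 6 deepest falls do not overlap.

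Members with a known place on the ribosome were also grouped by that place, a grouping made after their values had been seen. The stalks that engage factors and tRNAs differed widely among themselves. Besides mRpL10, the log2 fold change was −2.51 for mRpL12, which forms the stalk that mRpL10 anchors, −2.32 for mRpL11 at the base of that stalk and −1.84 for mRpL1 of the opposite stalk, where spent tRNAs leave in bacteria. Relative to mRpL12 within a library, mRpL10 had 0.177, 0.143 and 0.139 of its level per kilobase (kb) in UAS-Antp muscles, against 0.310, 0.351 and 0.328 in UAS-GFP muscles. This ratio does not depend on how libraries are scaled, and its groups did not overlap, so the transcripts of these partner proteins did not fall in step. Near the peptidyl transferase center, where peptide bonds form, log2 fold changes were −3.24 for mRpL27, −2.85 for mRpL16, −2.63 for mRpL2 and −2.07 for mRpL3. Around the tunnel through which the new chain leaves, they were −2.80 for mRpL23, −2.71 for mRpL24, −2.22 for mRpL17, −1.96 for mRpL32, −1.94 for mRpL22 and −1.91 for mRpL4.

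In the small subunit the deepest fall was that of mRpS6, at chr3L:4364550-4365243 (dm6). It had 17.9, 15.3 and 17.6 CPM in UAS-Antp muscles, against 197, 178 and 203 CPM in UAS-GFP muscles, a log2 fold change of −3.51 ± 0.12. In bacteria S6 and S18 bind the platform of the subunit as a pair. mRpS17, an early binder of the small-subunit rRNA in bacteria, followed with 6.89, 9.25 and 10.1 CPM in UAS-Antp muscles and 87.2, 94.8 and 89.1 CPM in UAS-GFP muscles, a log2 fold change of −3.37 ± 0.16. mRpS2 (−3.34), mRpS18C (−3.24), mRpS18B (−2.94) and mRpS7 (−2.86), an organizer of the head of the subunit in bacteria, complete the 6 deepest falls. All 6 carry the names of bacterial proteins.

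The smallest fall of all 73 genes was that of mRpS18A, at chr3R:8561917-8562593 (dm6). Its values were 60.3, 40.5 and 44.3 CPM in UAS-Antp muscles, against 99.3, 112 and 159 CPM in UAS-GFP muscles, a log2 fold change of −1.35 ± 0.20. It also varied more between libraries than most members. The other small-subunit genes at this end were mRpS24 (−1.86), in mammals the counterpart of bacterial S3 at the mRNA entry site, mRpS26 (−2.10), mRpS11 (−2.14) of the platform, mRpS9 (−2.23) and mRpS33 (−2.24). Without the second UAS-Antp library (77781458 counts) the adjusted p of mRpS18A in edgeR's quasi-likelihood test was 0.00102, and without the third (63217976 counts) it was 0.00143, both above the threshold of 0.001, so that 72 of 73 members were then called lower.

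mRpS18A, mRpS18B and mRpS18C are 3 paralogs that all descend from bacterial S18, and they occupied different places in this order. In mammals the protein of the C gene sits where bacterial S18 does, that of the B gene elsewhere on the small subunit, and that of the A gene in the large subunit in spite of its name. mRpS18C had 13.3, 13 and 16.3 CPM in UAS-Antp muscles, against 114, 145 and 143 CPM in UAS-GFP muscles. mRpS18B had 10.3, 10.6 and 12 CPM in UAS-Antp muscles, against 85.6, 81.2 and 85.3 CPM in UAS-GFP muscles. Both fell further than mRpS18A, and the intervals of their fold changes do not overlap that of mRpS18A. Per kb of exon, the level of mRpS18C over that of mRpS18A was 0.243, 0.353 and 0.404 in UAS-Antp libraries, against 1.26, 1.43 and 0.993 in UAS-GFP libraries. mRpS18A thus made up 73.7%, 65.4% and 63.1% of the summed level of the 3 paralogs in UAS-Antp muscles, against 35.2%, 34.2% and 42.5% in UAS-GFP muscles. These shares are independent of library scaling and did not overlap between the groups. By contrast, the ratio per kb of mRpS6 to mRpS18C, whose bacterial counterparts pair, overlapped, at 1.13, 0.992 and 0.907 with UAS-Antp and 1.46, 1.03 and 1.19 with UAS-GFP. The paralog and partner ratios were chosen after the values had been seen.

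**Figure D2:**
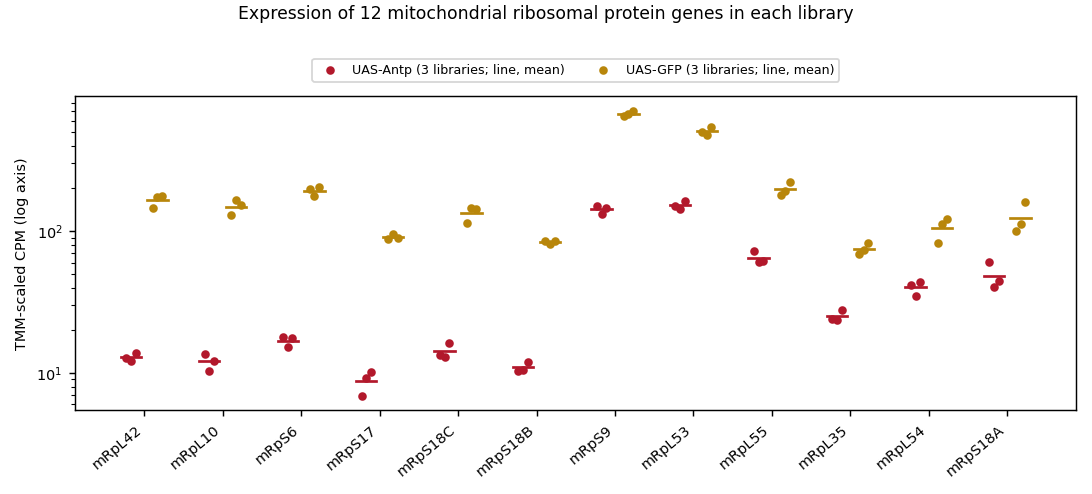
TMM-scaled CPM (log axis) of 12 members in each library, with UAS-Antp (3 libraries) to the left of UAS-GFP (3 libraries) for each gene and a line at the mean. The 2 groups are separate for all 12 genes, with the widest gap for mRpL42 (12.2 to 13.8 against 145 to 177 CPM) and the narrowest for mRpS18A (40.5 to 60.3 against 99.3 to 159 CPM).

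The subunits were compared by the medians of their genes and by their sums within a library, as descriptions without a test, because genes of a subunit are not replicates. The median log2 fold change was −2.38 over the 47 large-subunit genes and −2.55 over the 26 small-subunit genes. At least a 4-fold fall was fitted for 33 of 47 large-subunit and 24 of 26 small-subunit genes. The large-subunit genes summed to 1697 ± 130 CPM in UAS-Antp muscles and 8366 ± 571 CPM in UAS-GFP muscles, and the small-subunit genes to 957 ± 62.1 CPM in UAS-Antp muscles and 5303 ± 235 CPM in UAS-GFP muscles (SD, n = 3 each). The sum of mRpL over the sum of mRpS genes was 1.71, 1.79 and 1.82 in UAS-Antp libraries, against 1.53, 1.60 and 1.60 in UAS-GFP libraries. The balance between the subunits was therefore shifted slightly toward large-subunit transcripts in all 3 UAS-Antp libraries, by less than the range of falls within either subunit. With mRpS18A and mRpS30 counted in the large subunit, where their mammalian counterparts lie, the ratio was 2.31 to 2.36 with UAS-Antp and 2.01 to 2.03 with UAS-GFP. Leaving out mRpS30 and mRpS9, the most abundant small-subunit transcripts, gave 2.36 to 2.46 with UAS-Antp and 2.09 to 2.12 with UAS-GFP. The ratio of the median levels per kb was 1.09 to 1.22 with UAS-Antp and 0.951 to 0.991 with UAS-GFP.

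Members with bacterial and with mitochondrial names, split by the number in the symbol, did not separate. A name does not settle ancestry, since mRpS24 and mRpS28, counted here by their numbers among mitochondrial names, have bacterial counterparts. In the large subunit, the median log2 fold change was −2.35 for 28 genes with bacterial names and −2.47 for 19 with mitochondrial names. In the small subunit the order was turned, at −2.77 for 14 and −2.40 for 12 genes. The standard deviation among members was widest for small-subunit genes with bacterial names (0.59) and narrowest for small-subunit genes with mitochondrial names (0.26). This last set includes mRpS29, the counterpart of a GTP-binding protein of mammalian mitoribosomes, with a log2 fold change of −2.29, mRpS22 (−2.76), mRpS25 (−2.73) and mRpS35 (−2.49), which were picked here as examples.

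Compared per length, the members were well above the typical gene in both groups. Their median level was 33.8 CPM per kb in UAS-Antp muscles and 178 CPM per kb in UAS-GFP muscles, against a median over all genes tested of 4.41 CPM per kb with UAS-Antp and 3.55 CPM per kb with UAS-GFP. The median member stood at percentile 87.7 of all genes tested in UAS-Antp muscles and 94.6 in UAS-GFP muscles. In UAS-GFP muscles the highest levels were those of mRpL53 (609 CPM per kb), mRpS9 (520) and mRpL40 (512), and the lowest those of mRpL17 (31.7), mRpL36 (37.5) and mRpS24 (85.5). Levels spanned 26.9-fold in UAS-Antp muscles and 19.2-fold in UAS-GFP muscles, although the proteins are taken up into 1 complex. The top of both spans is mRpL53. All of its exon bases are shared with CG33155, so its level cannot be assigned to either gene. mRpS9, whose bacterial counterpart reaches toward the tRNA in the peptidyl site, had 151, 133 and 145 CPM in UAS-Antp muscles, against 642, 670 and 706 CPM in UAS-GFP muscles. mRpL17, at the low end, had 6.49, 5.95 and 9.93 CPM in UAS-Antp muscles, against 30.5, 41.7 and 31.8 CPM in UAS-GFP muscles. The order of the levels was largely shared by the groups (Spearman's rho 0.76 and Pearson's r 0.81 on log values, across the 73 genes, which share libraries and are not independent replicates). The log2 fold change showed little relation to the level in UAS-GFP muscles (rho −0.17) or to exon length (rho 0.058) across the same genes. Against the mean log level of both groups rho was 0.18. Levels and fold changes rest on the same counts, which by itself can relate them.

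**Figure D3:**
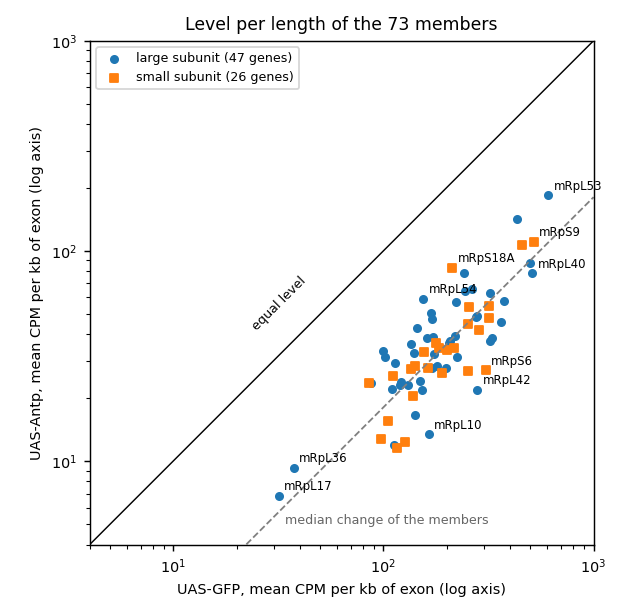
Mean level per kb of exon of the 73 members in UAS-GFP muscles (horizontal, log axis) and UAS-Antp muscles (vertical, log axis), with circles for large-subunit and squares for small-subunit genes; the solid line marks equal levels and the dashed line the members' median change. All points lie below the solid line, mRpS18A and mRpL54 stand above the dashed line, and mRpL42, mRpL10 and mRpS6 stand below it.

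The genes lie on all 5 major chromosome arms, with 12 on 2L, 12 on 2R, 17 on 3L, 21 on 3R and 11 on X. The median log2 fold change was −2.78, −2.34, −2.36, −2.23 and −2.52 on these arms in turn, and every member fell on each of them. Many mRp genes start back to back with another gene. A gene on the opposite strand starts within 1000 bases of 56 members, which gave 58 such neighbors and 54 with enough counts to test. Of these neighbors 10 fell (18.5%, against 19.3% of all genes tested) and 6 rose (16.3% of all genes tested rose) with TMM scaling. Their median log2 fold change was −0.13. With library totals 5 of the 54 fell and 33 rose, with a median of 1.19. Over all 9546 genes tested 685 then fell (7.18%) and 4971 rose, with a median of 1.48. The neighbors that fell include other mitochondrial genes, such as ATPsynD of the ATP synthase beside mRpL55 (−2.74) and Mitofilin of the inner membrane beside mRpL35 (−2.16), and the largest fall was that of Kua beside mRpS18B (−3.03). Dystroglycan (Dg), a receptor for the extracellular matrix that starts 384 bases from mRpL34, rose by 2.51 on the log2 scale, while mRpL34 had 5.17, 4.77 and 6.37 CPM in UAS-Antp muscles, against 38.3, 45.8 and 54.5 CPM in UAS-GFP muscles. The phospholipase C gene norpA rose by 2.23 beside mRpL33 (−2.43). The fold changes of members and neighbors showed little relation (rho −0.080 over 54 pairs), and neighbors thus fell about as often as genes in general.

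Overlapping gene models affect 3 members. mRpL53 shares all of its 829 exon bases with CG33155 on the same strand and the counts of both were nearly the same, so that its values, 151, 144 and 163 CPM with UAS-Antp and 496, 474 and 545 CPM with UAS-GFP, cannot be assigned to either gene. mRpL13 shares 236 of 671 exon bases with CG10602, and mRpS14 shares 30 of 797 with CG32533. Their log2 fold changes were −2.67 and −2.77. All of the other 70 members fell as well, with the same large-subunit median of −2.38 and a small-subunit median of −2.54.

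Mitoribosomal proteins with another symbol behaved alike. The technical knockout gene tko, which encodes mitochondrial S12 of the decoding site and whose mutation makes flies sensitive to mechanical shock, had 39.8, 32.6 and 42.5 CPM in UAS-Antp muscles, against 229, 296 and 327 CPM in UAS-GFP muscles. Its log2 fold change was −2.89. bonsai, which encodes mitochondrial S15 and is named for the small body of its mutants, had 61.7, 65.4 and 65.8 CPM in UAS-Antp muscles, against 403, 335 and 369 CPM in UAS-GFP muscles, a log2 fold change of −2.52. The rRNAs on which these proteins assemble could not be followed, since all 37 genes of the mitochondrial genome, lrRNA and srRNA included, are listed at 0 in every library.

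The rest of the machinery for mitochondrial gene expression fell less deeply. Over all genes tested, 19.3% fell with TMM scaling, with a median of 0.17, and 7.18% fell with library totals, with a median of 1.48. Of 11 translation factors all 11 fell with TMM scaling, with a median log2 fold change of −1.85, and 5 fell with library totals, with a median of −0.54. The deepest falls were those of CG1750 (−2.97) and the elongation factor mEFTu1 (−2.85), which brings charged tRNAs to the ribosome, and the smallest those of the release factor mRF1 (−1.62) and the recycling factor mRRF1 (−1.58). mEFTu1 had 212, 183 and 207 CPM in UAS-Antp muscles, against 1556, 1317 and 1473 CPM in UAS-GFP muscles. Of 16 genes of the mitochondrial aminoacyl-tRNA synthetase list, 14 fell with TMM scaling, with a median of −1.49, and 3 fell with library totals, with a median of −0.17 and 9 genes below 0. With TMM the calls ran from PheRS-m (−2.77) and TyrRS-m (−2.29) to AlaRS-m (−0.86). ArgRS-m (−0.81, adjusted p = 0.00427 in edgeR's quasi-likelihood test) and GluRS-m (−0.89, adjusted p = 0.00200) did not pass the threshold.

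For transcription and RNA stability, 13 of 14 genes fell with TMM scaling, with a median of −1.71, and 5 fell and 1 rose with library totals, with a median of −0.38. mtTFB1, a methyltransferase of the small-subunit rRNA in mammals, had a log2 fold change of −2.73 and mTerf3 one of −2.70. mtTFB2, which opens promoters for the mitochondrial RNA polymerase, had one of −1.31, and scu, a subunit of mitochondrial RNase P, had one of 0.53 with TMM (adjusted p = 0.0220 in edgeR's quasi-likelihood test) and of 1.84 with library totals, where it rose (adjusted p = 8.64e-06). Of 5 genes for replication of the mitochondrial genome 3 fell with TMM scaling, and the median was −1.19, or 0.13 with library totals, where 1 fell. Here DNApol-gamma35 (−2.97), the accessory subunit of the polymerase, and the single-stranded DNA binding protein mtSSB (−1.54) fell, while the catalytic subunit tam (−0.73, adjusted p = 0.0113) and Top3alpha (−0.087, adjusted p = 0.816) did not pass edgeR's test. Only 4 genes could be matched for ribosome assembly, of which 3 fell with TMM scaling, with a median of −1.04, or 0.27 with library totals, where 1 fell. These were Spg7 (−1.96), a subunit of the protease that matures L32 in mammals and yeast, CG7488 (−1.08) and CG10914 (−1.0), and Nsun5, which modifies cytosolic rather than mitochondrial rRNA in yeast and mammals, had −0.13 (adjusted p = 0.701).

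Products of the mitoribosome work beside respiratory chain subunits that are encoded in the nucleus, and the genes of both changed by a like amount. Of 67 tested genes for nuclear subunits of oxidative phosphorylation (OXPHOS) 64 fell and 1 rose with TMM scaling, with a median log2 fold change of −2.64. Over all genes tested 19.3% fell and 16.3% rose. With library totals 63 of the 67 fell and 1 rose, with a median of −1.32, against 7.18% of all genes tested that fell. With TMM the lowest were UQCR-11L (−4.95, adjusted p = 0.00173 in edgeR's quasi-likelihood test, at 2.23 CPM or less in every library) and cytochrome c (Cyt-c-p, −4.00). At the other end, ND-18 of complex I fell by 2.07 on the log2 scale and COX7A rose by 4.67, with 291, 315 and 331 CPM in UAS-Antp muscles, against 12.2, 12.8 and 11.8 CPM in UAS-GFP muscles. The sum of the 73 members over that of the OXPHOS genes was 0.0910, 0.0834 and 0.0957 in UAS-Antp libraries, against 0.0730, 0.0892 and 0.0756 in UAS-GFP libraries. These ranges overlap, so no shift between the ribosome and the nuclear OXPHOS genes was seen beyond the spread of the libraries.

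The ribosome of the cytosol gave another picture. Of 84 tested cytosolic ribosomal protein genes 80 fell with TMM scaling, with a median log2 fold change of −1.12, from RpS21 (−1.71) and RpL13 (−1.57) to RpL24-like (−0.61, adjusted p = 0.00142 in edgeR's quasi-likelihood test) and RpL7-like (−0.23, adjusted p = 0.150), but with library totals none fell, 3 rose and the median was 0.21. Of all genes tested 19.3% fell with TMM, with a median of 0.17. With library totals 7.18% fell and 4971 of 9546 rose, with a median of 1.48. The median of the cytosolic genes thus lay below that of all genes tested. A change of scaling moves all genes by nearly the same amount, so this gap was bound to be alike with both scalings. Within a library, which needs no scaling, the sum of the 73 members over that of the cytosolic ribosomal protein genes was 0.0716, 0.0694 and 0.0719 with UAS-Antp, against 0.171, 0.175 and 0.169 with UAS-GFP. Mitochondrial relative to cytosolic ribosomal protein transcripts were thus less than 50% of their control level in each UAS-Antp library, and the groups did not overlap.

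**Figure D4:**
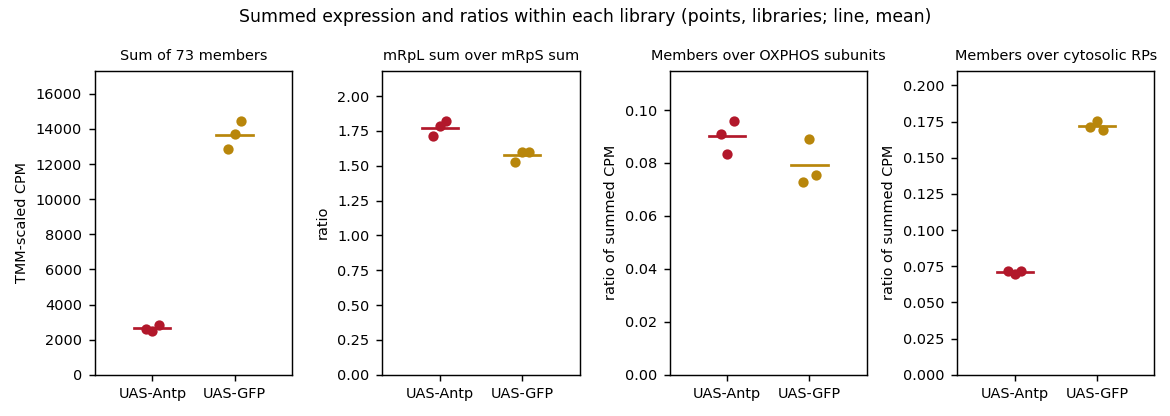
Values per library (points, with a line at the mean; UAS-Antp left, UAS-GFP right), namely the summed TMM-scaled CPM of the 73 members, the ratio of mRpL to mRpS sums, and the members' sum over that of nuclear OXPHOS genes and of cytosolic ribosomal protein (RP) genes. The groups are separate in the sum (2481 to 2856 against 12835 to 14435 CPM), in the subunit ratio and in the ratio to cytosolic genes, and they overlap in the ratio to OXPHOS genes.

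Genes known to control mitochondrial gene expression did not move as a group. Of 10 tested regulators 3 fell and 2 rose (19.3% and 16.3% of all genes tested). Their median log2 fold change was 0.11, against 0.17 over all genes tested. TFAM (−1.61), which packages the mitochondrial genome and takes part in its transcription, the growth regulator Myc (−1.42) and its partner Max (−0.57) fell with TMM scaling. The nuclear receptor Hnf4 (0.96) and ewg (1.49), the fly counterpart of nuclear respiratory factor 1, rose, and the PGC-1 family coactivator srl, at 0.33, did not pass edgeR's quasi-likelihood test (adjusted p = 0.194). With library totals 8 of the 10 rose and none fell, with a median of 1.43. Of all 9546 genes tested 4971 then rose, with a median of 1.48. The direction of this list thus depends on the scaling. Its median was near that of all genes tested, and a change of scaling leaves such a gap nearly unchanged.

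**Figure D5:**
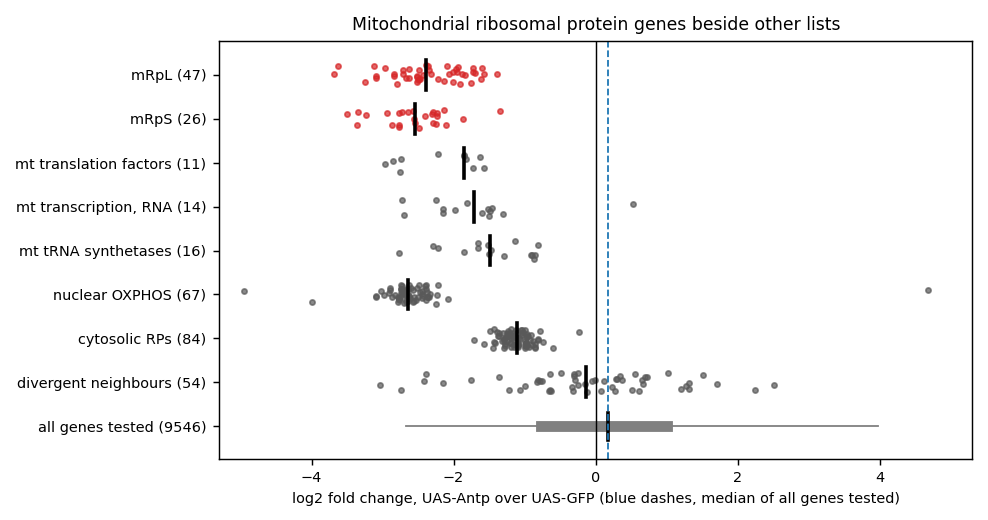
Log2 fold change, UAS-Antp relative to UAS-GFP, for each tested gene of the lists (points; vertical bar, median of the list), with the quartiles (thick bar) and the 5th to 95th percentile (thin line) of all genes tested. The large-subunit (median −2.38) and small-subunit genes (−2.55) lie close to the nuclear OXPHOS genes (−2.64) and below mitochondrial translation factors (−1.85), tRNA synthetases (−1.49), cytosolic ribosomal proteins (−1.12) and divergent neighbors (−0.13), all with TMM scaling (with library totals these medians were −1.06, −1.24, −1.32, −0.54, −0.17, 0.21 and 1.19 in the order named). The median of all genes tested was 0.17 with TMM scaling and 1.48 with library totals.

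The size of these falls depends on the scaling of the libraries. As a share of all counts, with no scaling factor, the members made up 0.403%, 0.398% and 0.457% in UAS-Antp libraries, against 0.795%, 0.925% and 0.879% in UAS-GFP libraries. With library totals every member still had a log2 fold change below 0, but 55 of 73 passed the threshold, against 7.18% of all genes tested that were then lower, and the members' median was −1.15. The median of all genes tested was then 1.48 in place of 0.17, and the members' median relative to it was −2.64 with both scalings. A change of scaling moves all genes by nearly the same amount, so this relative value was bound to stay nearly the same. With library totals the groups overlapped for mRpL15, mRpL35, mRpL48, mRpL54, mRpL55 and mRpS18A. The share of all genes tested that overlapped with this scaling was not counted. The log2 fold changes of mRpS18A and mRpL54 were then −0.032 (adjusted p = 0.876) and −0.074 (adjusted p = 0.685) in edgeR's quasi-likelihood test.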

How the data were processed

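Polyadenylated RNA of hand-dissected IFMs was sequenced from 3 UAS-Antp and 3 UAS-GFP libraries. The authors deposited a table of read counts per gene and a table of their own comparison. The deposited counts hold uniquely mapping reads of the matching strand over the exons of FlyBase release 6.42 genes (dm6), without normalization. Per the labels, Subread, featureCounts and DESeq2 1.34 were used. The authors' comparison table holds mean counts, fold changes, test statistics and p-values, and only its gene symbols were used here. The count was even for 75.0% to 81.0% of genes with 5 to 50 counts, so that both mates of a read pair were probably counted. The UAS-Antp columns could not be matched to single labeled samples and are given in table order.

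Counts were filtered (filterByExpr), scaled with TMM and tested with edgeR 4.0.16 (R 4.3.3, glmQLFTest), with Benjamini-Hochberg adjustment over 9546 genes and a threshold of 0.001. The standard error is the log2 fold change divided by the square root of F, and 95% intervals use edgeR's degrees of freedom. Levels per kb divide CPM by exon length. DESeq2 1.42.0, limma 3.58.1 (voom), other scalings and filters, a looser threshold of 0.05, glmTreat, halved counts and leaving out each library were alternatives. Per gene, an exact permutation test of 3 against 3 libraries cannot go below p = 0.1 and was not used.

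Named were the 6 highest and 6 lowest log2 fold changes of each subunit, the 3 highest and 3 lowest levels per kb with UAS-GFP, members that share exon bases, Antp, tko, bonsai and the 2 highest and 2 lowest genes of each list. Members and lists were chosen with earlier results of these data known, and other members were named after their values were seen. List symbols that matched no gene were left out, such as 16 of 20 for ribosome assembly. Markers of testis (3 tested of 8, 1 higher and 1 lower) and ovary (1 tested of 6, none called) were also read.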

Additional observations from a re-analysis of the deposited data

How the results depend on the processing

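All 73 members had a negative log2 fold change under each alternative that kept them, and no member was higher. All 73 were lower with DESeq2's size factors, upper quartile scaling, no filter on low counts, a minimum of 100 counts, DESeq2's test, voom, a threshold of 0.05 and halved counts. The count was 55 with library totals, 71 with glmTreat (a change beyond 1 on the log2 scale, where mRpL54 and mRpS18A were lost) and 70 of 70 without members that share exon bases. Without each library in turn it was 72 to 73, the large-subunit median ran from −2.48 to −2.32 and the small-subunit median from −2.63 to −2.48. With library totals the medians were −1.06 (large) and −1.24 (small), and the 18 members lost all ranked 48 or later of 73, counted from the deepest fall. With mRpS18A and mRpS30 counted as large, an alternative added after seeing the data, they were −2.38 and −2.57. Over all genes 3397 were called, against 5656 with library totals, 5807 at 0.05 and 1694 with glmTreat. Of these calls 45.8% were higher with TMM and 87.9% with library totals. No paired analysis was possible because the labels number the libraries 1 to 3 in one group and 4 to 6 in the other. Every member had at least 429 counts in each library, so depth did not limit their detection.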
